A study of Mus musculus with 12 samples.

Results

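The genes described here are 10 genes of proteoglycans and of hyaluronan: Vcan, Acan, Bgn, Dcn, Lum, Fmod, Hspg2, Has1, Has2 and Cd44. They were chosen by name, as all non-control probes of the array that carry 1 of these gene symbols, which gave 16 of 55681 probes. All 10 genes had at least 1 tested probe, and 13 of the 16 probes were tested. RNA was measured in the aorta of adult male C57BL/6J mice on day 3 of treatment, in 4 groups of 3 samples with 1 array each. The DMSO group was given the solvent dimethylsulfoxide alone, and the rapamycin group was given this mTOR inhibitor at 2 mg/kg/day in the same solvent. In the BA+DMSO group the solvent was combined with BAPN (beta-aminopropionitrile) at 150 mg/kg/day, an inhibitor of collagen and elastin crosslinking, and with angiotensin II (AngII) at 1 µg/kg/min, a challenge used to bring about aortic dissection. BA+rapamycin mice received the same challenge with rapamycin. Sample titles call the DMSO group Pre, whereas the series record describes it as given DMSO alone. Adjusted p-values measure the spread between these samples.

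A proteoglycan is a core protein that carries long sulfated sugar chains. Versican (Vcan) and aggrecan (Acan) are large core proteins that bind hyaluronan and hold water in the extracellular matrix, and perlecan (Hspg2) carries heparan sulfate in basement membranes. Biglycan (Bgn), decorin (Dcn), lumican (Lum) and fibromodulin (Fmod) are small leucine-rich proteoglycans that bind collagen fibrils. Hyaluronan is a sugar chain without a core protein, made at the cell membrane by synthases such as Has1 and Has2 and bound by the receptor CD44. In the aortic wall these molecules fill the space between elastic lamellae, collagen and smooth muscle cells.

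The promoters of 3 genes whose RNA differed with the challenge are shown first, because Has1 and Cd44 were higher and the main Vcan probe was lower. The table of RefSeq promoters (build GRCm38.p6) held 7 of the 10 genes, and Dcn, Lum and Has2 are named only. Each sequence is the 250 bases before the annotated start, read 5′ to 3′ on the strand of the gene, and capitals mark a match to 1 of 7 motifs. Matches were sought on both strands. The general promoter elements were the TATA box, with the letters TATAAA, the CCAAT box, and the GC box, with the letters GGGCGG. The binding sites of regulated factors were the cAMP response element TGACGTCA, the E-box CACGTG, the AP-1 site spelled TGANTCA and the STAT site spelled TTCNNNGAA. No match overlapped another in the promoters printed.
Has1, chr17:17855189-17855438, minus strand: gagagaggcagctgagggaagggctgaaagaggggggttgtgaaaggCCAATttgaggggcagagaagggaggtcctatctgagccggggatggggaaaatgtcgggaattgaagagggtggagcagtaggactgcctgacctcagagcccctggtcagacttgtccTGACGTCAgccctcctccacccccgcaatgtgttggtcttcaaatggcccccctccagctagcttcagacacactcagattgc
Cd44, chr2:102901666-102901915, minus strand: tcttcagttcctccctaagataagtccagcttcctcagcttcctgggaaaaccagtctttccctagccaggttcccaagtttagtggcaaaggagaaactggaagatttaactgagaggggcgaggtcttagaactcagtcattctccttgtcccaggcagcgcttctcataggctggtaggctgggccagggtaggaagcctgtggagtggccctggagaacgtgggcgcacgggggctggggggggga
Vcan, chr13:89742513-89742762, minus strand: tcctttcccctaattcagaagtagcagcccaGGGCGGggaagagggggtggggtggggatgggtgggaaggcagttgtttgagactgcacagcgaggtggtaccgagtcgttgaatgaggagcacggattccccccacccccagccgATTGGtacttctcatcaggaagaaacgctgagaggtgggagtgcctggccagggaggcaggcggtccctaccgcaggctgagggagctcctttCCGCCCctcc

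The Has1 promoter held the letters TGACGTCA from 83 to 76 bases before the start, which 1.55% of all 32851 promoters in the table hold. It also held CCAAT, as 33.8% of promoters do. The Vcan promoter held 1 CCAAT box and 2 GC boxes, and 32.7% of promoters hold at least 1 GC box. None of the 7 motifs was found in the 250 bases before Cd44 or Fmod. The shares for the other motifs were 12.4% for the TATA box, 6.75% for the AP-1 site, 6.02% for the E-box and 7.02% for the STAT site. These matches are a description of letters.

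The next sequences are 60-base probes of Vcan and Cd44 that gave another picture than the main probe of the gene, with positions in the mouse build mm9 as the array files give them.
Vcan A_55_P1960208, chr13:89851810-89851869, minus strand: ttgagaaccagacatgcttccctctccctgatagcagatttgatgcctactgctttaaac
Cd44 A_55_P2166486, chr2:102672645-102672704, minus strand: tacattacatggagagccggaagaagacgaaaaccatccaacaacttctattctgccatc
Cd44 A_55_P2166488, chr2:102677971-102678030, minus strand: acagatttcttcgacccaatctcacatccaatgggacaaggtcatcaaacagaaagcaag

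Vcan and Cd44 each have 2 tested probes. For Vcan, A_55_P1960208 begins at base 1428 of the transcript it was designed on, and the other tested probe, A_55_P1960202 at chr13:89795080-89795139, begins at base 12207 of a longer one. The array file lists 4 RefSeq transcripts for each of them, 3 of which are on both lists. For Cd44, the tested probes A_55_P2064043 (chr2:102651398-102651457) and A_55_P2166501 (chr2:102654278-102654337) list the same 4 transcripts. A_55_P2166488 lists 3 of those 4.

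Values are log2 levels relative to the array's 75th percentile of processed signal, so a difference of 1 between groups is a fold of 2. The level of 1 probe cannot be set against that of another. A difference was called at a Benjamini-Hochberg adjusted p under 0.05 in limma, fitted across 27801 probes and all 12 arrays. Each gene is counted once, through the tested probe of highest mean level. The 75th percentile ranged over 247 to 314 intensity units for DMSO arrays, 287 to 376 for rapamycin, 85.4 to 282 for BA+DMSO and 81.0 to 121 for BA+rapamycin. The BA+DMSO arrays were the least alike, with correlations across probes from 0.912 upward against at least 0.974 within the other groups. The DMSO arrays and rapamycin replicate 1 lay on 1 slide, and the other 8 arrays on the second slide. Slide and challenge therefore cannot be told apart between DMSO and BA+DMSO, except through the rapamycin arrays. The titles of 10 samples also carry a date, and the labels do not say what it marks. DMSO replicates 2 and 3 share theirs with rapamycin replicates 2 and 3, BA+DMSO replicate 1 with BA+rapamycin replicate 1, and DMSO replicate 1 with BA+rapamycin replicate 3. The smooth muscle markers Acta2 and Myh11 and the endothelial marker Cdh5 were well above background on all 12 arrays.

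Under the challenge with vehicle, 3 of the 10 genes were called: Has1 and Cd44 were higher in BA+DMSO than in DMSO, and the main Vcan probe was lower, whereas the second tested Vcan probe was called higher. The same rule called 20.5% of all tested probes, 9.65% as higher and 10.8% as lower. Under the challenge with rapamycin, 6 of the 10 were called in BA+rapamycin against rapamycin, beside 41.7% of all probes. Has1, Has2, Cd44 and Hspg2 were higher there, beside 18.9% of probes, and Fmod and the main Vcan probe were lower, beside 22.9%, with the second Vcan probe again called higher. The median log2 difference of the 10 genes was 0.70 under challenge with vehicle and 0.06 with rapamycin, beside -0.04 and -0.08 over all tested probes. Rapamycin itself called none of the 10, either alone or under challenge.

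**Figure D1:**
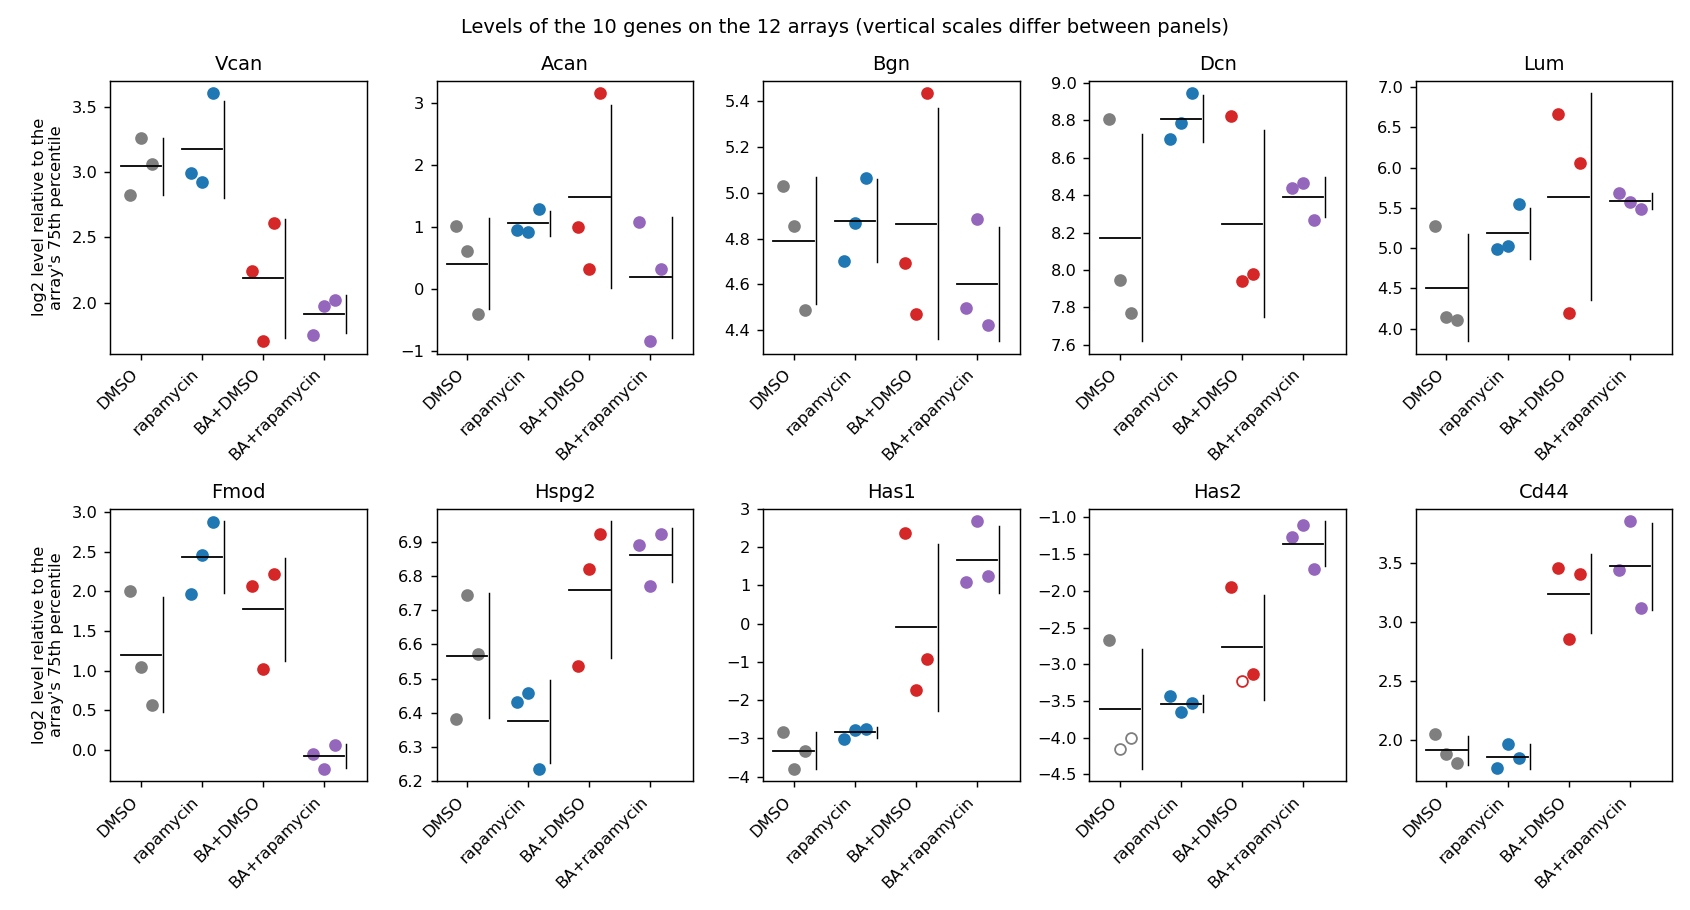
Log2 level of each of the 10 genes, relative to the array's 75th percentile, on each array of the 4 groups. Filled points are well above background and open points are not, horizontal lines are means and vertical lines 1 SD (n = 3). The challenged groups lie above the unchallenged ones for Has1 and Cd44, Has2 and Fmod stand apart in BA+rapamycin, and Bgn overlaps between all groups.

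Has1, a hyaluronan synthase, was the member with the largest difference. Its log2 levels on the 3 arrays of each group were -2.83, -3.80 and -3.32 in DMSO and -3.00, -2.78 and -2.74 in rapamycin. For BA+DMSO they were 2.38, -1.74 and -0.94, and in BA+rapamycin 1.1, 2.68 and 1.24. Every challenged array was above every unchallenged one, and BA+DMSO replicate 1 was far above the other 2 arrays of its group. Has1 rose 9.28-fold under challenge (log2 difference 3.21, SE 0.85, adjusted p = 0.0231 in limma). It rose 22.8-fold under challenge with rapamycin (log2 difference 4.51, SE 0.85, adjusted p = 0.00302 in limma). The first difference was 1.98 without BA+DMSO replicate 1, and its adjusted p rose to 0.0906 without DMSO replicate 2 and to 0.063 without DMSO replicate 3.

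Has2, a second hyaluronan synthase, was a dim probe in the unchallenged aorta. It was well above background on 1 of 3 DMSO arrays, with levels of -2.67, -4.15 and -4.01, and on all 3 rapamycin arrays, at -3.43, -3.65 and -3.53. In BA+DMSO it measured -1.95, -3.22 and -3.13, with 2 arrays well above background. The 3 BA+rapamycin arrays, at -1.27, -1.11 and -1.70, were higher than all 9 others. Has2 rose 4.52-fold in BA+rapamycin over rapamycin (log2 difference 2.18, SE 0.41, adjusted p = 0.0032 in limma). Before centring, its intensities were 24.0, 21.7 and 29.2 in rapamycin and 45.5, 34.6 and 33.2 in BA+rapamycin. Prox1 and Matn1, well above background on no array, were higher there too after centring. Their means were -6.33 and -6.10 in rapamycin and -4.89 and -4.71 in BA+rapamycin. The part of the centring in the Has2 difference was not tested. Under challenge with vehicle the difference was 0.84 (SE 0.41, adjusted p = 0.174), with values from 0.43 without BA+DMSO replicate 1 (adjusted p = 0.502) to 1.31 without DMSO replicate 1 (adjusted p = 0.0415).

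Cd44 encodes the main cell surface receptor for hyaluronan. A_55_P2064043 read 2.05, 1.89 and 1.81 in DMSO and 1.77, 1.97 and 1.85 in rapamycin. It read 3.46, 2.86 and 3.41 in BA+DMSO and 3.44, 3.85 and 3.12 in BA+rapamycin. The challenged and unchallenged arrays did not overlap. Cd44 rose 2.51-fold under challenge (log2 difference 1.33, SE 0.22, adjusted p = 0.00304 in limma) and 3.05-fold under challenge with rapamycin (1.61, SE 0.22, adjusted p = 0.000745). The second tested probe moved further in the same direction, by 1.92 under challenge (adjusted p = 0.000528) and by 2.46 with rapamycin (adjusted p = 0.000107). Its levels were 0.07, -0.20 and -0.28 in DMSO and 1.94, 1.59 and 1.82 in BA+DMSO, and those of the rapamycin and BA+rapamycin arrays are in the plot of both probes.

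The log2 ratio of the first to the second Cd44 probe within an array was 2.06 ± 0.06 for DMSO arrays (mean ± SD, n = 3) and 2.04 ± 0.25 for rapamycin arrays. The BA+DMSO arrays gave 1.46 ± 0.17 and the BA+rapamycin arrays 1.19 ± 0.13, so the probes changed by unequal amounts. The 2 Cd44 probes with the sequences printed above were near background. A_55_P2166486 was well above background on 1 of 12 arrays and A_55_P2166488 on 4 of 12, 2 of them DMSO arrays. Neither was tested.

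Markers of other cells moved with these results. Of 9 macrophage markers, 8 were called higher under challenge and 7 under challenge with rapamycin. Their summed level, on a linear scale relative to the 75th percentile, ran from 111 to 142 for DMSO arrays, 122 to 145 for rapamycin, 191 to 493 for BA+DMSO and 381 to 507 for BA+rapamycin. The defining markers Csf1r and Emr1 were well above background on every array. The sum of 10 fibroblast markers ran from 1076 to 1268 for DMSO arrays, 1081 to 1313 for rapamycin, 1344 to 2303 for BA+DMSO and 2100 to 2372 for BA+rapamycin. Of these markers 3 were called higher under challenge, and 4 higher and 1 lower under challenge with rapamycin. Their median log2 difference was 0.84 under challenge and -0.33 under challenge with rapamycin. In the second comparison the sum and the median thus ran in opposite directions, and the sum does not stand for every marker. The sum of 8 lymphocyte markers, of which Cd8a was well above background on no array, ran from 3.02 to 3.52 for DMSO arrays, 2.53 to 3.87 for rapamycin, 4.07 to 7.69 for BA+DMSO and 5.52 to 7.78 for BA+rapamycin, and Cd3e and Cd4 were called higher in both comparisons. The sum of 6 neutrophil markers, of which Cxcr2 was well above background on no array, ran from 0.889 to 1.48 for DMSO arrays, 1.53 to 2.30 for rapamycin, 2.59 to 6.16 for BA+DMSO and 1.96 to 4.25 for BA+rapamycin, and 1 of them, Ly6g, was called higher under challenge. The sum of 5 mesothelial markers ran from 0.548 to 3.34 for DMSO arrays, 2.43 to 3.99 for rapamycin, 6.67 to 14.5 for BA+DMSO and 1.49 to 11.6 for BA+rapamycin, with 4 called higher under challenge and 0 under challenge with rapamycin in limma. Smooth muscle markers, 8 in all, summed to 2862 to 3082 for DMSO arrays and 2592 to 3053 for rapamycin. For BA+DMSO this sum was 2460 to 4838, and for BA+rapamycin 3482 to 4517. The median log2 difference of these markers was -0.58 under challenge and -0.35 under challenge with rapamycin. Here too the sum does not stand for every marker. Lmod1 was called lower in both comparisons, and Tagln higher and Des lower under challenge with rapamycin. The sum of 7 adipocyte markers ran from 33.3 to 38.8 for DMSO arrays and 31.9 to 50.4 for rapamycin. For BA+DMSO it ran from 26.2 to 74.4, and for BA+rapamycin from 10.9 to 69.7. The median log2 difference of the 6 tested was 1.61 under challenge. It was 1.11 under challenge with rapamycin, where 1 of them, Cidea, was called lower. Ucp1 was tested only because all BA+DMSO arrays, where it was high, were well above background. Its call as higher under challenge is therefore no test of the rise. The part of these cells in the Has1, Has2 and Cd44 results was not tested. In whole tissue, more cells of a type and more RNA per cell cannot be told apart.

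Vcan, the large hyaluronan-binding proteoglycan of the vessel wall, gave opposite differences on its 2 tested probes. A_55_P1960202, near the end of the longer transcript, read 2.82, 3.26 and 3.06 in DMSO, 3.00, 2.93 and 3.60 in rapamycin, 2.25, 1.70 and 2.61 in BA+DMSO and 1.75, 1.97 and 2.02 in BA+rapamycin. All 6 challenged arrays were below all 6 unchallenged ones. This probe fell 1.81-fold under challenge (log2 difference -0.86, SE 0.26, adjusted p = 0.0385 in limma) and 2.39-fold under challenge with rapamycin (-1.26, SE 0.26, adjusted p = 0.00443).

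The other Vcan probe, A_55_P1960208, read -0.28, -0.45 and -0.47 in DMSO and -0.43, -0.26 and -0.13 in rapamycin. It read 0.49, -0.14 and 0.52 in BA+DMSO and 0.53, 0.15 and 0.40 in BA+rapamycin. Here the challenged arrays were the higher ones, and BA+DMSO replicate 2 lay within the range of the rapamycin arrays. This probe rose 1.62-fold under challenge (log2 difference 0.69, SE 0.21, adjusted p = 0.037 in limma) and 1.55-fold under challenge with rapamycin (0.64, SE 0.21, adjusted p = 0.0302). Within an array the log2 ratio of the first probe to the second was 3.45 ± 0.31 for DMSO arrays and 3.45 ± 0.27 for rapamycin arrays. The BA+DMSO arrays gave 1.90 ± 0.17 and the BA+rapamycin arrays 1.55 ± 0.30, with no overlap between challenged and unchallenged arrays (lowest unchallenged ratio 3.10, highest challenged ratio 2.09). No direction for Vcan as a whole gene can be given from these arrays.

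**Figure D2:**
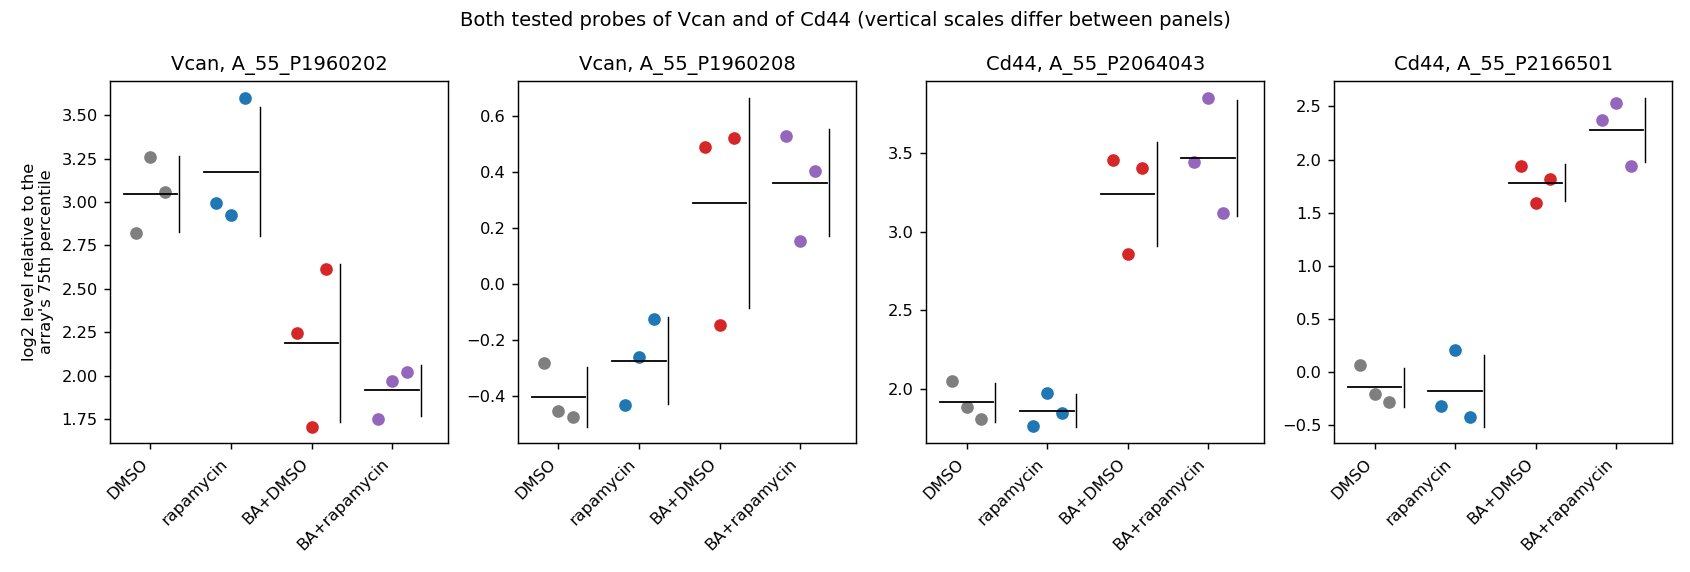
Log2 level relative to the array's 75th percentile of the 2 tested probes of Vcan and of Cd44, per array in the 4 groups, with means as horizontal lines and 1 SD as vertical lines (n = 3). The Vcan probes move in opposite directions with the challenge, and both Cd44 probes are higher in the challenged groups.

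Both calls of Vcan under challenge were near the threshold. The call of A_55_P1960202 was lost when any DMSO array, or BA+DMSO replicate 1 or 2, was left out, with differences from -1.07 to -0.62 and adjusted p up to 0.147. The call of A_55_P1960208 was lost when any DMSO array, or BA+DMSO replicate 1 or 3, was left out, with differences from 0.58 to 0.91 and adjusted p up to 0.124. Under challenge with rapamycin, A_55_P1960202 was called whichever array was left out, and A_55_P1960208 in 1 of 6 such fits (differences from 0.55 to 0.74, adjusted p up to 0.101). Another Vcan probe, A_52_P1044655 (chr13:89850072-89850131), lists 1 transcript, which the main probe does not list, and was well above background on 1 of 12 arrays, at -3.53 in rapamycin replicate 3.

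Acan, known best as the proteoglycan of cartilage, varied widely within the challenged groups. Its levels were 1.02, 0.62 and -0.40 in DMSO, 0.96, 0.93 and 1.30 in rapamycin, 0.99, 0.32 and 3.16 in BA+DMSO and 1.08, -0.85 and 0.32 in BA+rapamycin. The groups overlapped, and BA+DMSO replicate 3 was far above the other arrays of its group. The difference was 1.08 (SE 0.68, adjusted p = 0.283 in limma) under challenge, 0.25 without that array, and 2.81 (SE 0.39, adjusted p = 0.00271) with array brightness as a covariate. Under challenge with rapamycin it was -0.88 (adjusted p = 0.314), which turned to 2.15 (adjusted p = 0.0435) with that covariate. Of 8 cartilage markers, Matn1 and Matn3 were well above background on no array, and the sum of the list was 12.8 to 14.0 for DMSO arrays, 13.2 to 19.3 for rapamycin, 11.7 to 15.0 for BA+DMSO and 7.91 to 9.29 for BA+rapamycin. Of the 4 tested markers of this list, 2, Comp and Col9a2, were called lower under challenge with rapamycin, where Fmod fell too, and their part in these results was not tested.

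Hspg2, the heparan sulfate proteoglycan of basement membranes, showed small differences. The main probe, A_52_P422859, read 6.38, 6.75 and 6.57 in DMSO, 6.43, 6.46 and 6.24 in rapamycin, 6.54, 6.82 and 6.92 in BA+DMSO and 6.89, 6.77 and 6.92 in BA+rapamycin. BA+rapamycin lay above rapamycin on every array, and the DMSO and BA+DMSO arrays overlapped. Hspg2 rose 1.40-fold in BA+rapamycin over rapamycin (log2 difference 0.49, SE 0.17, adjusted p = 0.0377 in limma). The call was lost without any 1 of the 6 arrays (adjusted p from 0.061 to 0.134) and under quantile normalization, where the difference was 0.20. The second probe, A_55_P1959648, differed by 0.39 in the same comparison and was not called (adjusted p = 0.158).

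**Figure D3:**
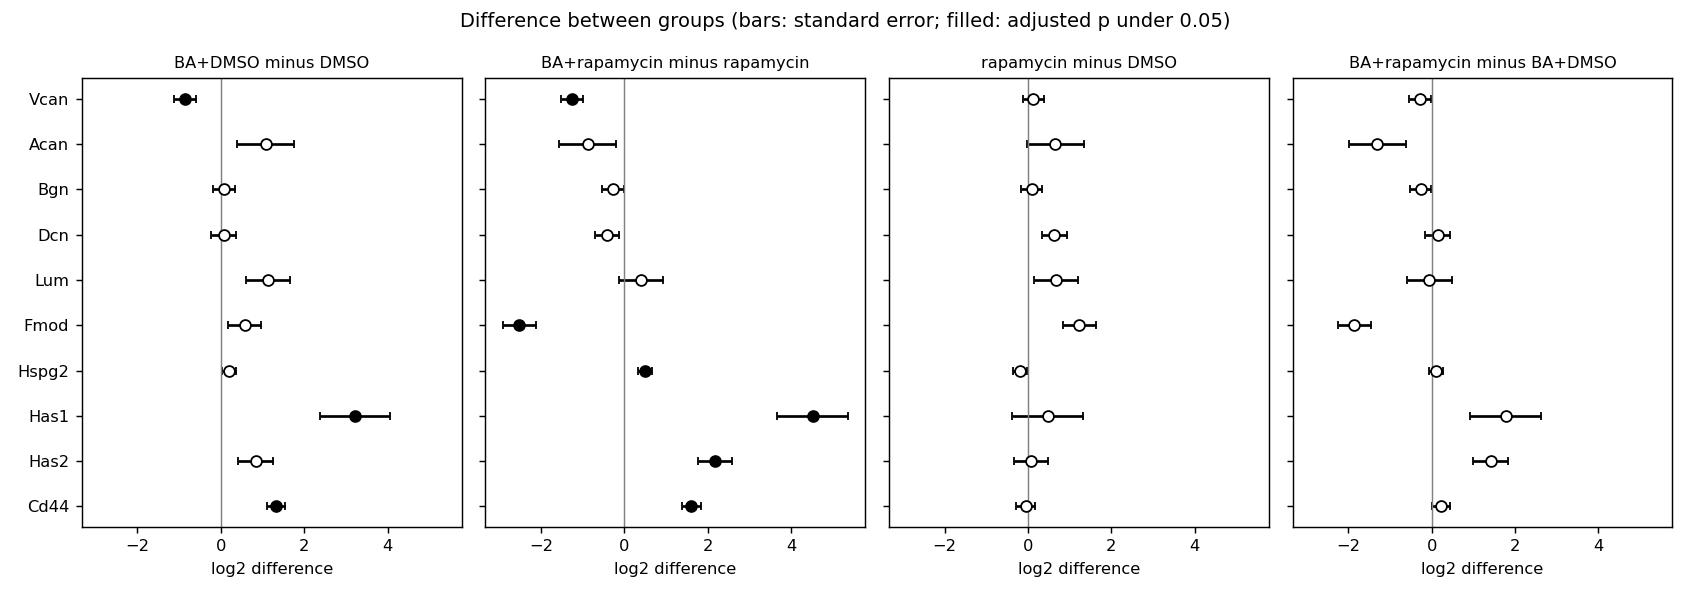
Log2 difference between groups for the main probe of each gene in the 4 comparisons, with the standard error from limma as bars. Filled points have an adjusted p under 0.05: 3 genes in BA+DMSO against DMSO, 6 in BA+rapamycin against rapamycin, and none in the rapamycin comparisons.

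Of the 4 small leucine-rich proteoglycans, Fmod was the only one called in any comparison. Fmod, which regulates the assembly of collagen fibrils, read 2.00, 1.04 and 0.56 in DMSO, 1.96, 2.46 and 2.87 in rapamycin and 2.07, 1.02 and 2.22 in BA+DMSO. In BA+rapamycin it read -0.05, -0.24 and 0.05, below all 9 other arrays. It fell 5.71-fold in BA+rapamycin against rapamycin (log2 difference -2.51, SE 0.40, adjusted p = 0.00145 in limma), and with array brightness as a covariate the difference was -1.17 and was not called (adjusted p = 0.215). Under challenge with vehicle the difference was 0.57 (SE 0.40, adjusted p = 0.337), which became 1.34 (adjusted p = 0.0412) with array brightness as a covariate and -0.13 with slide as a block.

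The other 3 genes of this class were not called under challenge. Lum, which binds collagen and carries keratan sulfate in some tissues, read 5.28, 4.14 and 4.11 in DMSO and 6.66, 4.19 and 6.05 in BA+DMSO, so the groups overlapped through BA+DMSO replicate 2. Its difference was 1.13 (SE 0.53, adjusted p = 0.156 in limma), with values from 0.61 without BA+DMSO replicate 1 (adjusted p = 0.46) to 1.85 without BA+DMSO replicate 2 (adjusted p = 0.00517). In rapamycin Lum read 4.99, 5.02 and 5.55, and in BA+rapamycin 5.69, 5.58 and 5.49.

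Dcn, which binds collagen I and growth factors of the TGF-β family, read 8.81, 7.95 and 7.77 in DMSO and 8.82, 7.94 and 7.98 in BA+DMSO. It read 8.70, 8.79 and 8.94 in rapamycin and 8.44, 8.47 and 8.27 in BA+rapamycin. The last 2 groups did not overlap, and their difference of -0.42 was not called (SE 0.30, adjusted p = 0.264 in limma). Under quantile normalization that difference was -1.25 with an adjusted p of 0.0108. Bgn, a close relative of Dcn, ranged from 4.42 to 5.43 over all 12 arrays, with differences of 0.07 under challenge and -0.28 under challenge with rapamycin (adjusted p = 0.866 and 0.406).

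Of the 10 genes, 3 had groups that did not overlap under challenge with vehicle, beside 34.6% of tested probes, and 7 under challenge with rapamycin, beside 65.9%. On the 8 arrays of the second slide alone, BA+rapamycin could be set against 2 rapamycin arrays. There Has1 differed by 4.43 (adjusted p = 0.0395 in limma), Has2 by 2.23 (0.0203), Cd44 by 1.56 (0.0256), Fmod by -2.75 (0.00976) and Vcan A_55_P1960202 by -1.35 (0.0418). Hspg2 was no longer called there (0.52, adjusted p = 0.153), and neither was Vcan A_55_P1960208 (0.56, adjusted p = 0.187). With slide as a block in the model, 0 of the 10 were called in limma under challenge with vehicle, against 3 without it, beside 0.054% of all probes, and 5 under challenge with rapamycin, beside 28.5%. The differences with vehicle were then 2.97 for Has1 (SE 1.60, adjusted p = 0.536), 1.18 for Cd44 (SE 0.42, adjusted p = 0.368) and -1.13 for the main Vcan probe (SE 0.48, adjusted p = 0.437), so the standard errors were wider than without the block. The brightness of the arrays moved with the challenge too, and with it as a covariate 2 of the 10 were called under challenge with rapamycin, beside 6.42% of all probes, Cd44 (1.86, adjusted p = 0.0241) and Acan, whose sign turned. Has1 (4.54, SE 1.61) and Has2 (2.22, SE 0.77) differed there by about as much as without the covariate, with wider standard errors (adjusted p = 0.125 and 0.117). The main Vcan probe differed by -0.49 (adjusted p = 0.428), against -1.26 without the covariate, and Fmod by -1.17 (adjusted p = 0.215), against -2.51. With vehicle 4 were called, beside 18.3% of probes called in either direction. All 4 were higher: Acan, Cd44 (1.47, adjusted p = 0.00763), Lum (2.05, adjusted p = 0.0356) and Fmod. Has1 (3.23, adjusted p = 0.084) and the main Vcan probe (-0.42, adjusted p = 0.268) were not.

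The title dates were used as a block in 2 ways, both chosen after seeing the data. As a random block over all 12 arrays, 2 of the 10 genes, Has1 and Cd44, were called under challenge (beside 19.1% of probes), and the main Vcan probe was not (-0.72, adjusted p = 0.1 in limma). The same 6 genes as without the block were called under challenge with rapamycin, beside 40% of probes. As a fixed block, on the 8 arrays whose date is on more than 1 array, BA+DMSO keeps replicate 1 alone, which is assumed to vary like the other groups. There Has1 differed by 5.35 under challenge and Cd44 by 1.08. The Has1 level of BA+DMSO replicate 1, 2.38, was far above the -1.74 and -0.94 of replicates 2 and 3. Without replicate 1, the Has1 difference in the fit without a block was 1.98. With rapamycin, the comparison under challenge in that fit rests on BA+rapamycin replicate 3. This array is set against rapamycin replicates 2 and 3 through the DMSO arrays of both dates. Has1 differed there by 3.28, Fmod by -3.81 and Dcn by -1.55. Cd44 differed by 1.00, Has2 by 0.48, Hspg2 by 0.86 and the main Vcan probe by -0.90.

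The 2 challenged groups, whose arrays share a slide, were compared to ask whether rapamycin shifted these genes under challenge. None of the 10 genes was called in limma, beside 0.281% of all probes, and 2 had an unadjusted p under 0.05, beside 20.1%. These were Fmod and Has2, and they were also the 2 genes whose groups did not overlap, beside 14.5% of probes. Fmod differed by -1.85 (SE 0.40, 3.61-fold lower, adjusted p = 0.0779), and Has2 by 1.41 (SE 0.41, 2.66-fold higher, adjusted p = 0.133). Has1 differed by 1.77 (SE 0.85, adjusted p = 0.262), Acan by -1.31 (SE 0.68, adjusted p = 0.289) and the second Cd44 probe by 0.50 (SE 0.22, adjusted p = 0.243). The other genes lay between -0.27 for Vcan and 0.23 for Cd44. With title date as a random block Fmod was called (-2.03, adjusted p = 0.0333), beside 1.65% of probes. With it as a fixed block, where BA+DMSO replicate 1 is set against the BA+rapamycin array of the same date, 0 genes were called, Fmod differed by -2.12 (adjusted p = 0.0724) and Has1 turned to -1.28 (adjusted p = 0.0939).

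Leaving out a BA+DMSO array changed these calls too. Without BA+DMSO replicate 2, Fmod was called lower (log2 difference -2.23, adjusted p = 0.00414 in limma), and the share of all tested probes called rose to 39.9%. Without BA+DMSO replicate 1, Has1 was called higher (3.01, adjusted p = 0.0304) beside 0.806% of probes.

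Rapamycin without challenge called 0 of the 10 genes in limma, beside 0.0036% of all probes, and 1 gene had an unadjusted p under 0.05, beside 4.27%. That gene was Fmod, 1.23 higher in rapamycin than in DMSO (SE 0.40, unadjusted p = 0.0107, adjusted p = 0.922). Dcn differed by 0.64 (SE 0.30, adjusted p = 1). The differences of the 10 genes ran from -0.19 for Hspg2 to the value for Fmod. No gene had groups that did not overlap, beside 21.5% of probes. With array weights, Fmod was called (1.15, adjusted p = 0.0471), beside 5.44% of probes. Between the 2 DMSO and 2 rapamycin arrays of 1 title date, which lie on different slides, 0 of the 10 genes were called, with 1.86 for Fmod (adjusted p = 0.196), 1.01 for Dcn (adjusted p = 0.196) and -0.31 for Hspg2 (adjusted p = 0.503).

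The interaction asks whether the effect of rapamycin differed with and without challenge. It called 0 of the 10 genes and 0% of all probes in limma, and 2 of the 10 had an unadjusted p under 0.05, beside 6.12% of probes. The study's methods state a rule for comparing 2 conditions, p under 0.01 with a fold over 4 or under 0.25. Here p was taken as unadjusted, and the rule was also applied to the interaction. By it, 1 of the 10 passed under challenge (beside 2.51% of probes), 3 under challenge with rapamycin (5.14%) and 1 in the interaction (0.212%). Fmod had the largest value, -3.08 (SE 0.57, unadjusted p = 0.000205, adjusted p = 0.417), and it was called without BA+DMSO replicate 2 (-3.46, adjusted p = 0.0239), where 11% of all probes were called. Has2 had a value of 1.34 (SE 0.59, adjusted p = 0.737), Has1 of 1.30 (SE 1.20, adjusted p = 0.746) and Acan of -1.96 (SE 0.97, adjusted p = 0.737). With 1 array left out, the values ran from 0.87 to 1.75 for Has2, 0.48 to 2.54 for Has1 and -2.54 to -1.12 for Acan.

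The hyaluronan genes had the highest correlations among the 10 genes over all arrays, but not within groups. Over the 12 arrays, which share 4 groups, Pearson's r was 0.924 between Has1 and Cd44, 0.921 between Has1 and Has2 and 0.831 between Has2 and Cd44. After the group means were removed these values were 0.67, 0.756 and 0.566. The main Vcan probe ran opposite to Cd44 (r = -0.824), and r was 0.3 after the group means were removed. Has2 and Dcn gave r = 0.952 within groups and 0.255 over all arrays, and Lum and Fmod gave 0.845 and 0.205. These values are descriptions of 12 arrays.

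The genes most like each member were sought among 10553 genes well above background on every array. The likest gene to Has1 was Nuak2 (r = 0.989), and to Cd44 it was Pitpna (0.991, followed by Timp1, an inhibitor of matrix proteases, at 0.975). For the small proteoglycans they were Bace2 for Fmod (0.969), Srpx for Lum (0.970), Tgfbi for Dcn (0.914) and Srxn1 for Bgn (0.924). For Acan it was Rdbp (0.948) and for Hspg2 Man1b1 (0.884). Has2 was left out because it was not above background on every array.

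Other genes of the pathway were taken from 6 lists. Of 28 tested genes of other proteoglycan core proteins, 4 were called higher and 6 lower under challenge, and 6 and 9 under challenge with rapamycin. Prg4, the lubricating proteoglycan of joints, rose 20.5-fold under challenge (log2 difference 4.36, adjusted p = 0.000202 in limma), and Esm1, an endothelial proteoglycan, rose 16.8-fold (4.07, adjusted p = 0.00102). Ecm2 fell 5.59-fold (-2.48, adjusted p = 0.000331), Optc fell 4.86-fold (-2.28, adjusted p = 0.00227) and Ogn (osteoglycin) fell 3.38-fold (-1.76, adjusted p = 0.000808). Epyc (epiphycan) was called higher under challenge (2.55, adjusted p = 0.0251), a call lost in 8 of 19 alternatives, with 1.63 without BA+DMSO replicate 1, and Podn (podocan) rose 4.56-fold under challenge with rapamycin (2.19, adjusted p = 0.0157), a difference of -0.030 with array brightness as a covariate. Omd (osteomodulin), a relative of Fmod, was the 1 gene of the 6 lists called between the challenged groups. With rapamycin it was 3.22-fold lower (log2 difference -1.69, SE 0.26, adjusted p = 0.0275), a call lost in 11 of 21 alternatives, with differences from -1.87 to -0.92 and adjusted p up to 0.487. The sum of 7 endothelial markers ran from 105 to 124 for DMSO arrays and 149 to 230 for BA+DMSO, with 2 of 7 called higher under challenge, and the part of these cells in the Esm1 result was not tested. The median difference of the list was -0.08 under challenge, beside -0.04 over all probes.

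Of 18 tested genes that make, bind or degrade hyaluronan, other than the 3 above, 6 were called higher and 4 lower under challenge, and 4 and 7 under challenge with rapamycin. Ptx3, which crosslinks hyaluronan in inflamed matrix, was at least 14.8-fold higher in BA+rapamycin than in rapamycin, where it was not well above background. It was tested only because all BA+rapamycin arrays, where it was high, were well above background. Its call in that comparison is therefore no test of the rise. Ambp, the source of the light chain bikunin of hyaluronan-linked inter-alpha-inhibitor, rose at least 5.01-fold under challenge, where the DMSO arrays were not well above background (adjusted p = 0.0021 in limma). It was well above background on 2 BA+DMSO arrays. Ambp was tested only because all BA+rapamycin arrays, where it was highest, were well above background. Its call is therefore not read as support for the rise. The fitted log2 difference of 2.89 became 2.29 without BA+DMSO replicate 1, and the call was lost in 2 of 19 alternatives. Lyve1, a hyaluronan receptor of lymphatic endothelium and some macrophages, rose 3.28-fold under challenge (adjusted p = 0.00472). The sum of 4 lymphatic endothelial markers, of which Prox1 and Flt4 were well above background on no array, ran from 6.22 to 10.4 for DMSO arrays and 17.9 to 27.7 for BA+DMSO, and their part in the Lyve1 result was not tested. Hyal1, a lysosomal hyaluronidase, fell 3.98-fold under challenge (log2 difference -1.99, adjusted p = 0.00239) and 6.41-fold under challenge with rapamycin (-2.68, adjusted p = 0.000348). Itih3 and Itih4, heavy chains of the inter-alpha-inhibitor family, fell 3.83-fold and 3.66-fold under challenge (adjusted p = 0.00534 and 0.0122). Under challenge with rapamycin, Layn (layilin), a hyaluronan-binding membrane protein, rose 2.52-fold (adjusted p = 0.00176), and Hapln1, the cartilage link protein, was not well above background in BA+rapamycin, with a direction that turned under normexp background correction (0.21).

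**Figure D4:**
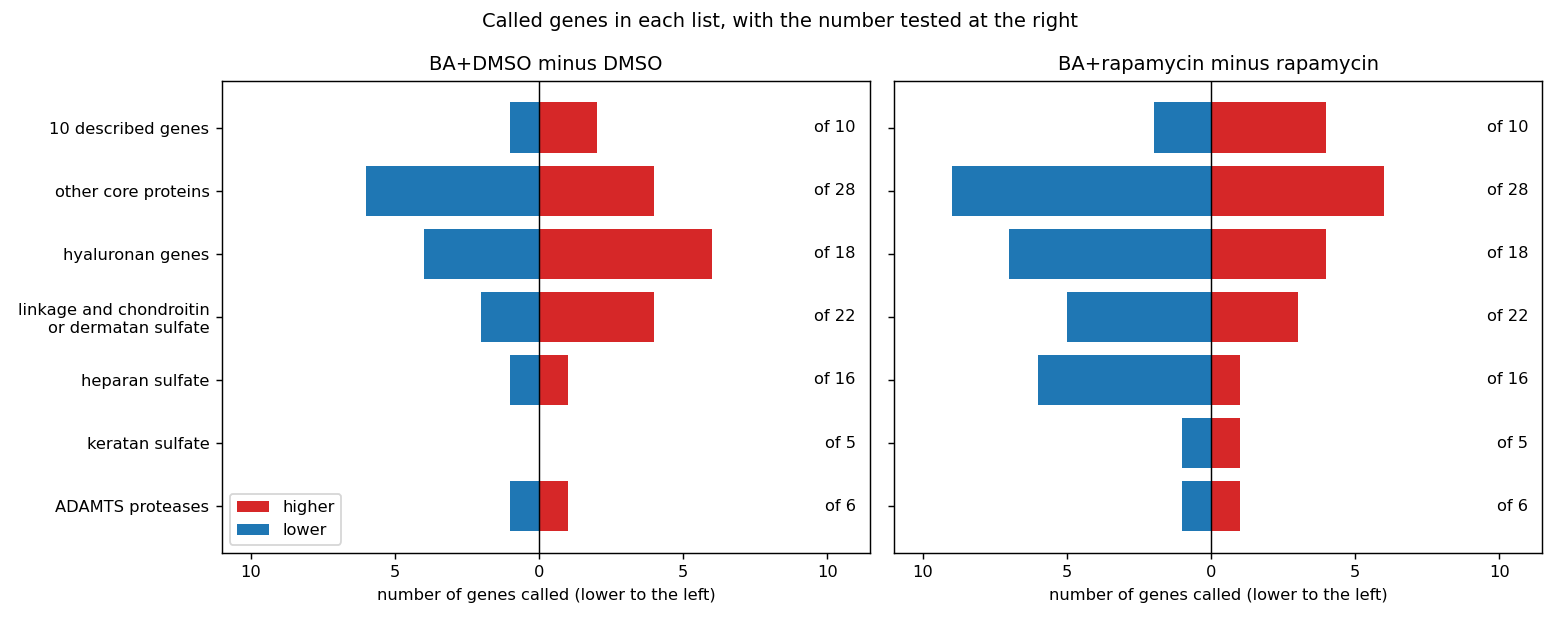
Number of genes called higher (right) and lower (left) under challenge with vehicle and with rapamycin, for the 10 genes and for 6 lists of related genes, with the number tested beside each bar. Among other core proteins, 4 were higher and 6 lower in the first comparison and 6 and 9 in the second.

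Of 22 tested genes that build the linkage region and chondroitin or dermatan sulfate chains, 4 were higher and 2 lower under challenge, and 3 and 5 under challenge with rapamycin. Chst11, a chondroitin 4-O-sulfotransferase, rose 1.74-fold and 2.07-fold in these comparisons (adjusted p = 0.00721 and 0.00118 in limma). Chst3, a chondroitin 6-O-sulfotransferase, fell 3.48-fold under challenge with rapamycin (adjusted p = 0.00163). That call was lost with array brightness as a covariate (adjusted p = 0.218), and the log2 differences over 21 alternatives ran from -1.98 to -0.77. Under challenge with vehicle, Chst7 and Papss2, an enzyme that makes the sulfate donor, rose 1.98-fold and 1.91-fold, whereas Ust and Csgalnact1 fell 1.99-fold and 1.56-fold, and the calls of Chst7, Ust and Csgalnact1 were lost in 8, 10 and 9 of 20 alternatives. Under challenge with rapamycin, Chpf2 and B4galt7 rose 1.65-fold and 1.49-fold (adjusted p = 0.0151 and 0.0168 in limma), calls lost in 6 and 8 of 21 alternatives. Csgalnact2 fell 2.50-fold in that comparison, a difference of 0.047 with array brightness as a covariate. Chsy3 was called lower in that comparison, but its difference was 0.22 under normexp background correction. Of 16 genes for heparan sulfate, 1 was higher and 1 lower under challenge, and 1 and 6 under challenge with rapamycin. These were Sulf1, which removes 6-O-sulfates (1.90-fold higher, adjusted p = 0.0389), and its relative Sulf2 (log2 difference -0.59, adjusted p = 0.0366), and both calls with vehicle were lost in 11 of 20 alternatives, 5 and 4 of them among the 6 fits that left out 1 array. Under challenge with rapamycin, Ext2, a chain polymerase, rose 2.31-fold (adjusted p = 0.00499), whereas the calls of the sulfation enzymes Ndst3 and Hs6st1 as lower held in only 8 and 10 of 20 alternatives, and the differences turned to 0.077 and 0.20 under normexp background correction. In BA+rapamycin each of these probes exceeded background clearly on 1 array of 3. Of 5 genes for keratan sulfate, 0 were called under challenge, and 1 was higher and 1 lower under challenge with rapamycin. Chst1 rose 3.37-fold there (adjusted p = 0.00371 in limma), a call lost with array brightness as a covariate (adjusted p = 0.385). Over 21 alternatives the log2 differences of Chst1 ran from 0.77 to 2.24. B4galt4 fell 1.51-fold (adjusted p = 0.0219), a call lost in 9 of 21 alternatives. Of 6 ADAMTS proteases that cleave versican or aggrecan, Adamts4 rose 8.21-fold under challenge with rapamycin (adjusted p = 0.000126), and its call as higher with vehicle (2.07-fold, adjusted p = 0.0289) was lost in 12 of 20 alternatives. Adamts15 was called lower with vehicle and with rapamycin (2.23-fold and 1.85-fold, adjusted p = 0.0237 and 0.039), calls lost in 9 of 20 and 13 of 21 alternatives. With vehicle and with rapamycin, 30 and 45 of the 95 genes on the 6 lists were called, beside 20.5% and 41.7% of all probes, and with slide as a block 0 were called with vehicle.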

How the data were processed

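Total RNA of mouse aorta was labelled with Cy3 and hybridised to 1-colour Agilent SurePrint G3 Mouse v2 arrays, 12 in all. Per the file headers, the deposited intensity values are processed signals from Agilent Feature Extraction 10.7.1.1, background-subtracted within each array and not normalized between arrays; the submitters' processing notes name version 9.5.1.1. The authors also deposited a matrix of intensities with the same median in each column, used as an alternative.

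Of 62976 spots, 3671 were controls and were left out, as were spots with outlier flags, which left 55681 probes after spots of a probe were averaged. Log2 signals were centred on each array's 75th percentile. A probe was tested if every array of some group had at least 0.5 of its spots well above background, which gave 27801 probes, and no spot was saturated. Groups were compared in limma 3.58.1 (R 4.3.3) with 1 mean for each group over 12 arrays, two-sided, with Benjamini-Hochberg adjustment over all probes. The fit was tested on simulated data. The number of arrays limits the precision.

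The 10 genes and all gene lists were chosen with earlier results of these data known. All 10 genes are named, and from each related list the called genes with the largest rise and fall, up to 3 each way. For a probe not well above background in a group, the fold is given as a bound, from the lowest signal among probes well above background. Alternatives changed the normalization, background correction, filter, slide, samples, array weights and array brightness. Those for the gene lists, and title date as a block, were chosen after seeing the data. Promoter sequences are from RefSeq (GRCm38.p6). The gene most like Vcan is not reported here.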

Additional observations from a re-analysis of the deposited data

Results flagged for a closer look

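For 3 of the 10 genes, the effect of rapamycin ran in opposite directions without and with the challenge: every rapamycin array lay on 1 side of the DMSO mean, and every BA+rapamycin array lay on the other side of the BA+DMSO mean. The same pattern was met by 10% of all tested probes, and whether 3 of 10 differs from that share was not tested. The limma interaction did not pass the threshold for any of them. For Fmod the log2 difference was 1.23 without and -1.85 with the challenge, an interaction of -3.08 (adjusted p = 0.417). For Acan it was 0.65 without and -1.31 with the challenge, an interaction of -1.96 (adjusted p = 0.737), and the value with the challenge was -0.47 without BA+DMSO replicate 3 and turned to 0.089 with title date as a fixed block. For Hspg2 it was -0.19 without and 0.10 with the challenge, an interaction of 0.29 (adjusted p = 0.737), and the value with the challenge turned to -0.081 with quantile normalization, -0.077 with the deposited matrix and -0.057 with normexp.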

How the results depend on the processing

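No paired analysis was possible because the replicate numbers were given in sample order and pair no samples; dates in the sample titles were used as a block instead. The array weights did not converge. Has2 has no value among probes well above background on all arrays. The alternatives for the related gene lists were chosen after seeing the data. The cause of the changes below was not tested.

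With quantile normalization, the log2 difference under challenge was -0.33 for Dcn and -0.0067 for Hspg2, and between the challenged groups -0.32 and -0.081. With the deposited matrix these were -0.32, -0.0070, -0.31 and -0.077. With normexp they were -0.18 for Bgn, -0.17 for Dcn and -0.040 for Hspg2 under challenge, -0.057 for Hspg2 between the challenged groups, and under challenge with rapamycin -0.031 for Lum, 0.21 for Hapln1, 0.22 for Chsy3, 0.077 for Ndst3 and 0.20 for Hs6st1. Lum differed by 0.089 between the challenged groups with the percentile over detected probes. With slide as a block, 0 of the 10 genes and 0 list genes were called under challenge, with differences of -0.19 for Bgn, -0.091 for Dcn and -0.13 for Fmod. With array weights, 0 of the 10 and 2 list genes were called under challenge, beside 0.403% of all probes, and 1 of the 10, Fmod, with rapamycin alone, beside 5.44%; Dcn differed by -0.13 under challenge and Lum by 0.10 between the challenged groups. With brightness as a covariate, 2 of the 10 and 19 list genes were called under challenge with rapamycin, beside 6.42% of all probes, with 2.15 for Acan, 0.48 for Bgn, -0.030 for Podn, 0.0031 for Chsy3 and 0.047 for Csgalnact2, and Lum differed by 0.47 between the challenged groups. With vehicle the same covariate called 4 of the 10, Acan, Cd44, Lum and Fmod, and no longer Has1 or the main Vcan probe. With only the 2 groups of a comparison, 1 of the 10 and 12 list genes were called under challenge, beside 4.47% of all probes. With slide as a random block, 46 list genes were called under challenge, beside 36.9% of all probes. On the second slide alone, 17 were called under challenge with rapamycin, beside 11.8%. Between the challenged groups, 1 list gene was called, beside 0.281% of all probes. List calls were 2 with quantile normalization (beside 0.802%) and the deposited matrix (0.799%), and 3 with detected probes (1.7%) and brightness (1.12%). They were 0 with normexp (0.0396%), no filter (0.0377%) and slide as a block (0.133%). The second slide alone, only 2 groups and array weights also gave 0, beside 0% each. By the study's rule, 1 of the 10 passed under challenge, 3 under challenge with rapamycin and 1 in the interaction.

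With title date as a random block, 1 of the 10 and 3 list genes were called between the challenged groups, where Dcn differed by -0.074, and Lum by -0.12 under challenge with rapamycin. With it as a fixed block, 1 of the 10 and 10 list genes were called under challenge, 0 list genes between the challenged groups, and 3 and 16 under challenge with rapamycin. That fit holds 1 BA+DMSO array, and its comparison under challenge with rapamycin rests on BA+rapamycin replicate 3. The differences were then -0.78 for Acan, -0.41 for Bgn and -0.16 for Dcn under challenge, -0.38 for Dcn, 0.089 for Acan, -1.28 for Has1 and -0.015 for Cd44 between the challenged groups, -0.95 for Lum and 0.075 for Ndst3 under challenge with rapamycin, and -2.08 for Has1 in the interaction.

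Without each array in turn, 1 to 3 of the 10 genes were called under challenge (beside 7.38% to 38% of all probes), 0 to 1 between the challenged groups (0.115% to 39.9%), 5 under challenge with rapamycin (23.5% to 35%) and 0 to 1 in the interaction (0% to 11%). List calls ranged from 17 to 46, 0 to 38 and 27 to 37 in the first 3 of these comparisons. The differences under challenge ranged from -0.21 to 0.27 for Bgn and -0.21 to 0.39 for Dcn. Between the challenged groups they ranged from -0.46 to 0.020 for Bgn, -0.0099 to 0.43 for Dcn, -0.0098 to 0.18 for Hspg2 and -0.77 to 0.46 for Lum.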
